A study of Mus musculus with 4 samples.

Results

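Oxidative phosphorylation is described here through the nuclear genes of its 5 complexes, which were taken by gene symbol: every probe set whose symbol begins with Nduf, Sdh (Sdha to Sdhd), Uqcr, Cox followed by 5, 6, 7 or 8, or Atp5. Probe sets that list a further symbol beside a member were left out, and with them the genes Ndufa11 and Ndufs6. The rule used no measured value. It found 88 of the 18194 named genes, of which 36 belong to complex I, 4 to complex II, 8 to complex III, 14 to complex IV and 17 to complex V by their symbols, and 9 carry such a prefix but are assembly factors. These 9 are the 8 Ndufaf genes and Cox7a2l, which encodes a factor that joins complexes III and IV into a supercomplex. Ndufa4 was kept with complex I by its symbol, although its protein is now counted with complex IV. Cox7b is not analysed here.

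The respiratory chain of the inner mitochondrial membrane passes electrons from NADH (complex I) and succinate (complex II) through complex III and cytochrome c to oxygen at complex IV, and complexes I, III and IV pump protons meanwhile. Complex V, the ATP synthase, lets the protons back in and makes ATP. All complexes but complex II mix subunits encoded in the nucleus and in mitochondrial DNA, and the nuclear genes are known to be transcribed with help from the factors NRF1 and GABP. Granulocyte/monocyte progenitors (GMP) are dividing marrow cells, and the neutrophils they give rise to are known to rely largely on glycolysis.

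The study compared GMP of Icsbp-deficient and wild type mice; Icsbp, also called Irf8, encodes a transcription factor of myeloid cells. GMP were sorted by flow cytometry from mice aged 10 to 16 weeks, and their total RNA was hybridised to Affymetrix arrays of 2 types, 430A and MOE430_2, with 1 sample of each genotype per type (4 arrays). By the design text every array held its own preparation, pooled from the marrow of 10 or more wild type mice or 8 or more Icsbp-deficient mice, so no array shows the spread between single animals. The labels name no treatment, and a further Icsbp-deficient preparation is not analysed here. The label of the wild type 430A sample gives a mixed background, C57/Bl6 - S129Ola, and no genotype; the design text placed it in the wild type group. The strain of the other 3 samples is not given. The labelling kit came from ENZO for the Icsbp-deficient 430A sample and was a one-cycle kit for the MOE430_2 pair, whereas none is named for the other 430A sample, so kit and genotype cannot be told apart on 430A.

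Signals are given as log2(signal + 50), after each array had been scaled to a trimmed mean of 500 and the pair of each array type quantile normalised. A ratio is the log2 signal of the Icsbp-deficient array minus that of the wild type array of the same type, and a mean ratio averages both array types with limma's moderated standard error (n = 2 ratios). A gene "rose" or "fell" where its adjusted p was under 0.05 (limma with array type as a block, two-sided, Benjamini-Hochberg over the 13576 probe sets tested). A gene with several probe sets is represented by the tested one of highest mean signal. Over the 22626 non-control probe sets, before the filter on low signals, the 2 arrays of a type correlated at 0.980 (430A) and 0.979 (MOE430_2). Between the types within a genotype the values were 0.959 (wild type) and 0.958 (Icsbp-deficient).

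The targeted gene did not check the labels. One Irf8 probe set had log2 signals of 11.60 in the wild type and 11.47 in the deficient sample on 430A, and 12.27 and 11.44 on MOE430_2, a mean ratio of -0.48 ± 0.16 (SE, n = 2, limma adjusted p = 0.124). The second read 11.61 and 11.70 on 430A and 10.89 and 10.92 on MOE430_2, a mean ratio of 0.06 (adjusted p = 0.832). The sources used here do not say which part of Irf8 was deleted, and a probe set outside it checks nothing. The GMP primary granule genes, which mark these progenitors, had summed signals of 73758 to 124637 on the 4 arrays, and 0 of 6 rose or fell. Neutrophil genes rose (9 of 10, summed signals 11845 to 22574 in wild type and 34748 to 62945 in Icsbp-deficient GMP), all 8 eosinophil, basophil and mast cell genes fell (6266 to 8857 and 2169 to 2220), and 2 of 7 erythroid genes fell (4603 to 5387 and 3129 to 3754). All 7 erythroid genes were lower on both array types, against 2687 of all 7820 tested genes. Of 5 stem and progenitor genes tested 3 fell, of 8 monocyte and macrophage genes 2 rose and 4 fell, and of 3 megakaryocyte genes 1 fell. The shares over all tested genes were 3.26% that rose and 2.34% that fell. The 1 B cell gene tested did not pass, and 0 T and NK cell genes passed the filter on low signals. These are whole-sample signals, in which more cells of a type and more RNA per cell cannot be told apart, and the part of such cells in the results below was not tested.

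Most nuclear oxidative phosphorylation genes had ratios near 0. Of the 88 genes, 82 were on both array types and 79 of these passed the filter on low mean signal. In Icsbp-deficient GMP 4 of the 79 rose, Ndufs5, Cox6b2, Atp5e and Cox7a2l, 0 fell, and 75 did not pass. The 4 are 5.06% of the genes tested, against 3.26% of all 7820 genes that rose and 2.34% that fell, so neither count stands apart from the background. Counting either direction, 5.6% of all genes and 5.13% of all 13576 probe sets passed; of the 143 tested probe sets of the members 4 did. With no adjustment 9 of the 79 genes had a p under 0.05, 6 higher and 3 lower, against 19.5% of all genes. The median of the 79 mean ratios was 0.00, with 0.03 on 430A and -0.03 on MOE430_2, and the median of all tested genes was -0.01. The ratios ran from -0.44 (Atp5k) to 0.97 (Ndufs5). The spread was narrower than over all genes, with a standard deviation of 0.224 against 0.352. Of the 79 genes 64 lay within 0.2 of 0 on the log2 scale, which is 81.0% against 56.3% of all tested genes, and the standard errors were also lower, with a median of 0.116 against 0.157. The members also had higher signals, with a median log2 of 11.57 against 9.17, and the part of signal in the narrower spread was not tested. Some other lists had like shares within 0.2, such as the cytosolic ribosome (90.5% of 42 genes) and mitochondrial transcription and biogenesis (87.5% of 16). The mitochondrial ribosome had 72.3% of 47 large and 77.8% of 27 small subunit genes there. Further lists had lower shares. Examples were the tricarboxylic acid cycle (68.8% of 16), complex IV and III assembly (42.1% of 19) and glycolysis (28.6% of 14).

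A gene that did not pass is not shown to be unchanged, so the 95% intervals of the ratios were counted too. For 68 of the 79 genes the interval lay wholly within a 1.5-fold change in either direction, and for 77 within a 2-fold change; over all 7820 genes these counts were 4555 and 7271. The 2 genes whose interval reached past 2-fold were Ndufs5 and Cox6b2. Without the array type block, and without any 1 of the 4 arrays (where the block cannot be kept with a residual), 0 of the 79 genes rose or fell.

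**Figure D1:**
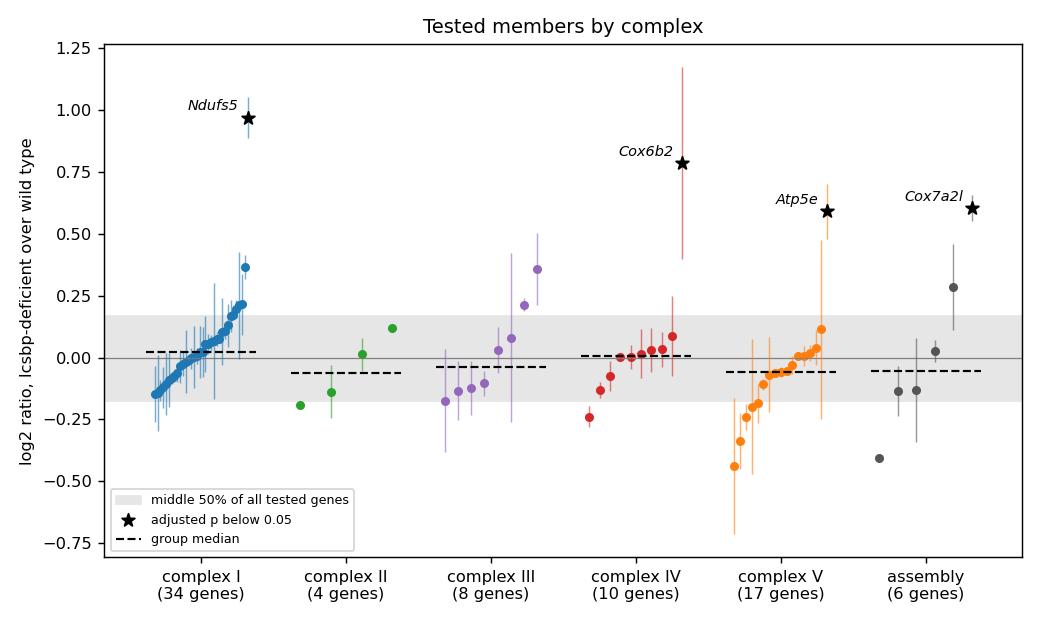
Mean log2 ratio of Icsbp-deficient over wild type GMP (vertical axis) for the 79 tested member genes, grouped by complex, 1 point a gene, with a line from the ratio on 1 array type to that on the other; stars mark the genes that rose, dashed lines the group medians, and the grey band the middle 50% of all tested genes. Medians of the groups lie between -0.06 and 0.02, and only Ndufs5, Cox6b2, Atp5e and Cox7a2l are past the threshold.

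Complex I takes electrons from NADH and is the largest of the complexes. Of its 34 tested genes 1 rose, 0 fell and 33 did not pass, and the median ratio was 0.02, with 0.06 on 430A and 0.00 on MOE430_2. The gene that rose was Ndufs5, an accessory subunit on the intermembrane space side. Its log2 signal was 9.50 in the wild type and 10.56 in the deficient sample on 430A, and 9.63 and 10.52 on MOE430_2. Both Icsbp-deficient arrays lay above both wild type arrays, and the ratios of the 2 types were alike, 1.05 and 0.89. The mean ratio was 0.97 ± 0.14 (SE, n = 2), a 1.96-fold higher signal, with a 95% interval of 0.66 to 1.28 on the log2 scale (limma adjusted p = 0.00402). A second probe set is listed for Ndufs5 together with a pseudogene, Ndufs5-ps. It read 9.76 and 10.19 on 430A and 10.51 and 11.09 on MOE430_2, a mean ratio of 0.50 (adjusted p = 0.0637) that did not pass, and its groups overlapped.

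The next highest gene of complex I was Ndufb3, a small accessory subunit of the membrane arm. It read 11.16 in the wild type and 11.58 in the deficient sample on 430A, and 11.62 and 11.94 on MOE430_2, so it was higher on each type by 0.41 and 0.32, but its groups overlapped and the mean ratio of 0.36 ± 0.11 did not pass (adjusted p = 0.110). The lowest ratios were those of Ndufv1, the subunit that binds NADH and flavin (-0.15, adjusted p = 0.588), and Ndufs1, which holds iron-sulfur clusters of the same arm (-0.14, adjusted p = 0.654). The 6 core subunits tested, most of which bind the flavin or iron-sulfur clusters, had a median of -0.03. The 9 genes of the NADH-oxidising module had a median of 0.00, the 4 of the quinone-binding module 0.04, and the other 21 genes 0.06. Ndufs5 and Ndufb3 both lie in that last group, and 0 genes of the other modules rose or fell.

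Complex II, succinate dehydrogenase, is an enzyme of both the tricarboxylic acid cycle and the respiratory chain. Of its 4 genes 0 rose or fell, and the median ratio was -0.06. Sdha, the flavoprotein, read 11.58 in the wild type and 11.54 in the deficient sample on 430A, and 11.91 and 11.66 on MOE430_2, a mean ratio of -0.14 ± 0.12 (adjusted p = 0.591). Sdhb, the iron-sulfur subunit, read 11.14 and 11.22 on 430A and 11.49 and 11.43 on MOE430_2, a mean ratio of 0.01. The membrane anchors Sdhc and Sdhd had ratios of 0.12 and -0.19. Sdhd was lower by 0.19 on both types, from 11.90 to 11.71 on 430A and from 11.21 to 11.03 on MOE430_2, and did not pass (adjusted p = 0.423). The groups of all 4 genes overlapped.

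Complex III passes electrons from ubiquinol to cytochrome c. Of its 8 tested genes 0 rose or fell, and the median ratio was -0.04, with 0.01 on 430A and -0.09 on MOE430_2. Uqcrh, the hinge protein beside cytochrome c1, read 11.27 in the wild type and 11.78 in the deficient sample on 430A, and 11.30 and 11.51 on MOE430_2. Both Icsbp-deficient arrays were above both wild type arrays, but the mean ratio of 0.36 ± 0.12 did not pass (adjusted p = 0.148). A further Uqcrh probe set, present only on MOE430_2, was higher by 0.23. Uqcr11, a small accessory subunit, also had groups that did not overlap, with ratios of 0.24 and 0.19 (mean 0.21, adjusted p = 0.376). Uqcrfs1, the Rieske iron-sulfur protein of the catalytic centre, read 11.32 and 11.36 on 430A and 11.66 and 11.28 on MOE430_2, so that the lower signal lay in the MOE430_2 pair (mean -0.17, adjusted p = 0.550). Uqcrb, which takes part in quinone binding, had a mean ratio of -0.13 (adjusted p = 0.461), which turned to 0.04 with scaling alone, as the median of complex III turned to 0.06.

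Complex IV, cytochrome c oxidase, reduces oxygen. Several of its nuclear subunits exist as paralogues with tissue-bound expression, and the rule covers both kinds. Of 10 tested genes 1 rose and 0 fell, and the median ratio was 0.01, with 0.08 on 430A and -0.05 on MOE430_2. The gene that rose was Cox6b2, known as the testis form of the subunit that holds the 2 monomers of the enzyme together. It read 9.71 in the wild type and 10.88 in the deficient sample on 430A, and 10.19 and 10.59 on MOE430_2. Both Icsbp-deficient arrays lay above both wild type arrays, but the difference was uneven, 1.17 on 430A and 0.40 on MOE430_2. The mean ratio was 0.79 ± 0.18 (SE, n = 2), 1.72-fold, with a 95% interval of 0.38 to 1.19 (limma adjusted p = 0.0369). Cox6b2 has 1 probe set on these arrays, so no second one bears on it. The call was lost with an offset of 16 in place of 50 (adjusted p = 0.0606), with no rescaling before the offset (0.0879), with no filter on low signals (0.109) and with no intensity trend (0.134).

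Its widespread paralogue Cox6b1 read 12.74 in the wild type and 12.58 in the deficient sample on 430A, and 13.60 and 13.50 on MOE430_2, a mean ratio of -0.13 ± 0.09 (95% interval -0.33 to 0.07, adjusted p = 0.491). The sign of Cox6b1 was not stable: its other probe set had a ratio of 0.05, and with scaling alone, without quantile normalisation, its ratio was 0.02. The difference between the paralogues was not tested. Of the other pairs, Cox6a1 had a ratio of -0.07 (0.10 with scaling alone) and Cox7a2 of 0.00. Their heart and muscle forms Cox6a2 and Cox7a1 did not pass the filter, with scaled signals of 44.6 to 95.7 and 40.7 to 54.1 on the 4 arrays and groups that overlapped. Cox8b, a muscle form of Cox8a, did not pass the filter either: its scaled signals were 19.0 and 9.57 on 430A and 15.0 and 3.15 on MOE430_2 (wild type, then deficient), lower in both deficient samples at signals below the offset of 50. Cox8a itself had a ratio of 0.03. Cox8c, known as a testis form, read 9.36 and 9.17 on 430A and 7.70 and 7.42 on MOE430_2 (mean -0.24, adjusted p = 0.495). Another Cox8c probe set, on MOE430_2 only, went from a scaled signal of 6.23 to 72.2, the opposite direction, with no replicate. Cox5a (0.00), Cox5b (0.01) and Cox6c (0.09) had intervals that lay within a 1.5-fold change.

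Complex V is built of a catalytic F1 head, made of the subunits of Atp5a1, Atp5b, Atp5c1, Atp5d and Atp5e, and a membrane part with a ring of c subunits. Of its 17 tested genes 1 rose and 0 fell; the median ratio was -0.06, and 11 of the 17 ratios were below 0, but with scaling alone the median was 0.02. Atp5e, the smallest subunit of the head, was the one that rose. It read 10.94 in the wild type and 11.64 in the deficient sample on 430A, and 11.37 and 11.85 on MOE430_2. Both Icsbp-deficient arrays were above both wild type arrays, by 0.70 and 0.48 within type. The mean ratio was 0.59 ± 0.12 (SE, n = 2), 1.51-fold, with a 95% interval of 0.32 to 0.86 (limma adjusted p = 0.0213), and the call was lost with no filter on low signals (0.0585) and with no intensity trend (0.122). It has 1 probe set, of a kind that can take up signal of related transcripts.

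The other 4 genes of the F1 head did not pass. Atp5b, the catalytic beta subunit, read 12.97 and 12.98 on 430A and 13.38 on both MOE430_2 arrays, with a mean ratio of 0.01 ± 0.09. Atp5d was at 0.02 and Atp5c1 at -0.06 (0.04 with scaling alone). Atp5a1, the alpha subunit, read 13.28 in the wild type and 13.02 in the deficient sample on 430A, and 13.21 and 13.11 on MOE430_2; both Icsbp-deficient arrays were lower, and the ratio of -0.18 did not pass (adjusted p = 0.319). Another Atp5a1 probe set had the opposite sign (0.34, adjusted p = 0.461).

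In the membrane part and the stalks 9 of 12 genes had ratios below 0 and 0 passed. The lowest of all members was Atp5k, the e subunit known to help ATP synthase form dimers. It read 12.49 in the wild type and 11.78 in the deficient sample on 430A, and 12.65 and 12.49 on MOE430_2. The groups only just did not overlap, with 12.4893 in the deficient sample on MOE430_2 against 12.4907 in the wild type on 430A. The difference was larger on 430A (-0.71) than on MOE430_2 (-0.16), and the mean ratio of -0.44 ± 0.13 did not pass (adjusted p = 0.101). The other 2 Atp5k probe sets had ratios of -0.07 and 0.12, so the lower signal was seen by only 1 of 3 probe sets. Atp5md, another dimer-associated subunit, was lower on both types (-0.45 and -0.22, mean -0.34, adjusted p = 0.241). The 3 genes for the same c subunit had ratios of -0.24 (Atp5g1), -0.06 (Atp5g2) and -0.11 (Atp5g3), each lower on both array types, and 0 passed; with scaling alone Atp5g3 was at 0.02. Atp5o, the stalk subunit OSCP, and Atp5l, subunit g, changed sign between the types, with 0.07 and -0.47 for the former and 0.48 and -0.25 for the latter.

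**Figure D2:**
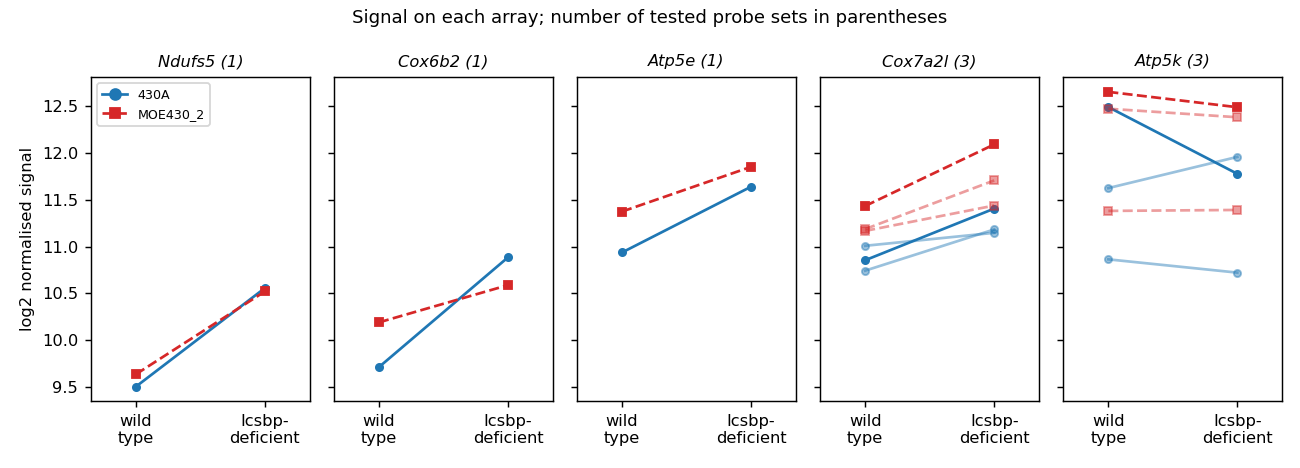
Log2 signal (vertical axis) on each of the 4 arrays for the 4 member genes that rose and for Atp5k, with a line joining the wild type to the Icsbp-deficient array of the same type (blue 430A, red MOE430_2); paler lines are further probe sets. Each of the 4 genes is higher in Icsbp-deficient GMP on both array types, by 0.40 to 1.17, while the representing probe set of Atp5k is lower on both.

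Among the 6 assembly factors tested 1 rose, Cox7a2l, and 0 fell. Its log2 signal was 10.85 in the wild type and 11.41 in the deficient sample on 430A, and 11.43 and 12.09 on MOE430_2. The groups overlapped, since the wild type MOE430_2 array was slightly above the Icsbp-deficient 430A array, but the ratios within type were alike, 0.55 and 0.66. The mean ratio was 0.60 ± 0.12 (SE, n = 2), 1.52-fold, with a 95% interval of 0.35 to 0.86 (limma adjusted p = 0.0165). The other 2 probe sets of Cox7a2l were also higher on both types, with mean ratios of 0.36 (adjusted p = 0.150) and 0.33 (adjusted p = 0.217), and did not pass. With the mean of its 3 probe sets the ratio was 0.43 (adjusted p = 0.0734), and with no intensity trend the adjusted p was 0.106, so both settings ended the call.

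Ndufaf4, an assembly factor of complex I, was at the other end. It read 9.82 in the wild type and 9.43 in the deficient sample on 430A, and 10.36 and 9.95 on MOE430_2, a mean ratio of -0.40 ± 0.14 (adjusted p = 0.149). Its second probe set had the same mean ratio, -0.40 (adjusted p = 0.217), with -0.22 on 430A and -0.59 on MOE430_2. Neither passed. Ndufaf3, which acts with Ndufaf4 in assembly, had a ratio of the opposite sign (0.29, adjusted p = 0.366), and Ndufaf1 was at -0.14. Of the genes present on MOE430_2 only, the assembly factor Ndufaf8 was lower by 0.24 and 0.28 in its 2 probe sets, Ndufaf2 was at 0.15 and Ndufaf6 at -0.01. Ndufa4l2, Cox7b2 and Ndufb4 had scaled signals between 10.6 and 36.6 there, too low to order. Further Ndufb4 probe sets, on both types, are listed under several symbols and were left out of the counts. Their mean log2 signals were 11.50 and 10.75, with mean ratios of -0.01 and 0.03, and neither passed. The probe sets on MOE430_2 only have 1 array a genotype and thus no test. The background of a 2-fold difference among all such probe sets was 1.2%.

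The ratios of the 2 array types were compared gene by gene, since they share no array. Of the 79 genes 45 had the same sign on both types, 20 above and 25 below 0, which is 57.0% against 65% of all tested genes. Both Icsbp-deficient arrays were above both wild type arrays for 6 genes (7.59%, against 12.8% of all genes) and below them for 5 (6.33%, against 14%). The 6 were the called genes other than Cox7a2l, with Ndufaf3, Uqcrh and Uqcr11. The 5 were Atp5k, Atp5a1, Uqcr10, Uqcrc2 and Ndufaf1. Pearson's r between the types was 0.60 over the 79 genes and 0.30 over the 75 that did not pass, and 0.57 over all tested genes; genes are not independent replicates, and the arrays of a pair share their normalisation.

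**Figure D3:**
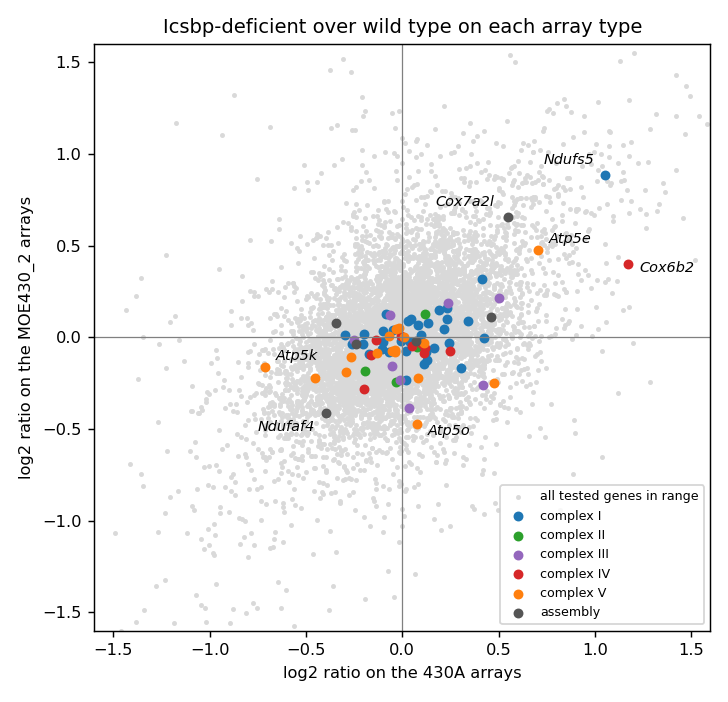
Log2 ratio of Icsbp-deficient over wild type on 430A (horizontal axis) against MOE430_2 (vertical axis), 1 coloured point for each of the 79 member genes by complex, over all tested genes in range in grey. The 4 genes that rose lie at the upper right, and most others lie around 0 in no common direction, with 34 of opposite sign on the 2 types.

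Probe sets of 1 gene differed from each other too. Of the 79 genes 43 had several tested probe sets, whose mean ratios spanned a median of 0.118. They had the same sign in 26 genes and opposite signs in 17. The 17 were Ndufa3, Ndufa5, Ndufb6, Ndufs4 and Ndufs7 of complex I, Uqcrc2 and Uqcrq of complex III, Cox5a, Cox5b, Cox6a1, Cox6b1, Cox6c and Cox7a2 of complex IV, and Atp5a1, Atp5c1, Atp5k and Atp5pb of complex V. The span was above 0.5 for Atp5k (0.560) and Atp5a1 (0.526). Of the 4 genes that rose only Cox7a2l has more than 1 probe set of its own name among those tested.

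**Figure D4:**
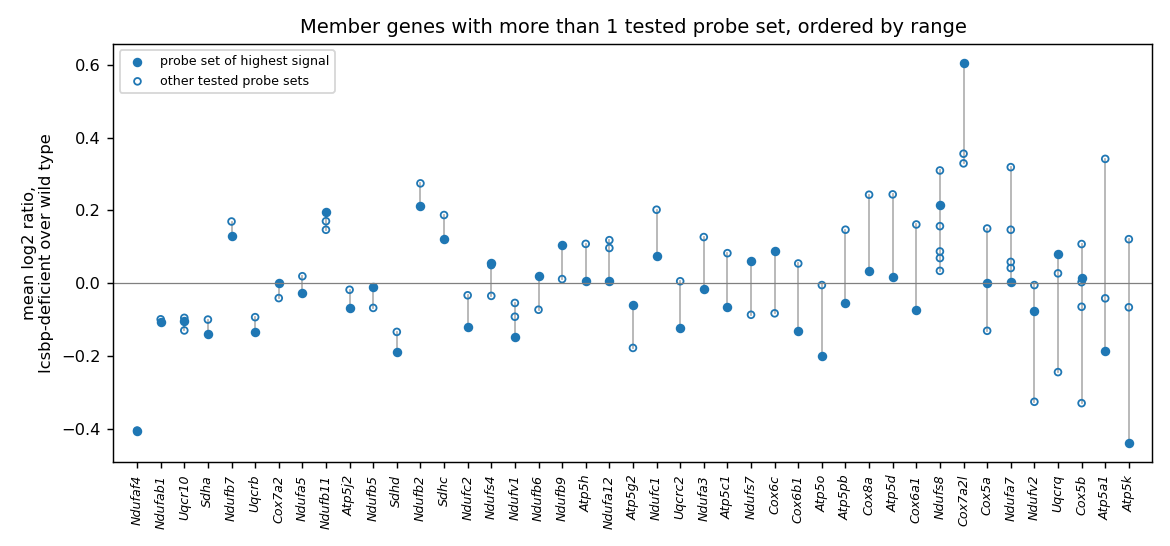
Mean log2 ratio (vertical axis) of every tested probe set of the 43 member genes that have more than 1, with the genes ordered by the span; filled points are the probe sets that represent the gene, open points the others, and lines join the probe sets of a gene. All 3 probe sets of Cox7a2l lie above 0.3, and those of Atp5k lie on both sides of 0.

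The promoters of the 4 genes that rose and of Atp5k, the lowest member, are shown because these are the genes that set the ends of the range. RefSeq windows on GRCm38.p6 were found for 74 of the 88 genes (79 windows), and the 250 bases before each start were searched on both strands for motifs of factors known to act on such genes or with Irf8. Capitals mark a match to the NRF1 motif, which is GCGCA and GCGC with 1 base of any kind between them, or to the ETS core CCGGAAG that GABP binds. All 5 genes lie on the minus strand, and the sequences run 5′ to 3′ along the gene. The windows are chr4:123718187-123718436 for Ndufs5, chr7:4753095-4753344 for Cox6b2, chr2:174464102-174464351 for Atp5e, chr17:83514334-83514583 for Cox7a2l and chr5:108434400-108434649 for Atp5k.
Ndufs5: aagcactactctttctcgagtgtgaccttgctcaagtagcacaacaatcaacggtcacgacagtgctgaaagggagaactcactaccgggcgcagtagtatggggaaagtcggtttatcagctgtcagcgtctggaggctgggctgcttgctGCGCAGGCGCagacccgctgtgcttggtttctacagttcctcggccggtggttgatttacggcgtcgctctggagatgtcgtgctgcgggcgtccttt
Cox6b2: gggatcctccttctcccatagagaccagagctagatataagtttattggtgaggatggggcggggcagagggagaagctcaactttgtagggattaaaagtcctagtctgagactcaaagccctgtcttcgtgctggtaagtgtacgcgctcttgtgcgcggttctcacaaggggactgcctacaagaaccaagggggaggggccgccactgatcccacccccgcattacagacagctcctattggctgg
Atp5e: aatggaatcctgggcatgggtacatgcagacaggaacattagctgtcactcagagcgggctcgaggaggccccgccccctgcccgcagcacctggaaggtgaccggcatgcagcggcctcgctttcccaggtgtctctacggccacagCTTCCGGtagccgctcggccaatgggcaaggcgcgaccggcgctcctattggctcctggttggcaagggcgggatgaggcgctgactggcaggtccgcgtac
Cox7a2l: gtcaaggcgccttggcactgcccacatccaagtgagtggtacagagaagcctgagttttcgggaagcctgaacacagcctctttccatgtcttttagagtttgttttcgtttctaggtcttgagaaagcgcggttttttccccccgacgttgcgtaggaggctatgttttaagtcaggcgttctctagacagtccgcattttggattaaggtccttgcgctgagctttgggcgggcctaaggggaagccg
Atp5k: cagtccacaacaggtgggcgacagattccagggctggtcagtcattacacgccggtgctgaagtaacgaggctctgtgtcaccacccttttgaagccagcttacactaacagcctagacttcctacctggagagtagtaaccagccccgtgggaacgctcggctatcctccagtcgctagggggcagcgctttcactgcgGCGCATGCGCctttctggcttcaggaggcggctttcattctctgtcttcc

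Ndufs5, the highest member, and Atp5k, the lowest, both held an NRF1 match, starting 98 and 50 bases before the start. Atp5e held an ETS match at 102 bases. The windows of Cox6b2 and Cox7a2l held no match to these letters. Over the member windows the NRF1 letters occurred in 13 of 79 (16.5%, 12 genes), against 3.74% of all 32851 windows of the same length. The ETS letters occurred in 14 (17.7%, against 6.91%). A match to the YY1 motif AAGATGGC was found in 1 window (1.27%, against 1.57%). The ETS-IRF composite letters, GGAA and GAAA with 2 bases between them, of the kind bound by Irf8 with PU.1, occurred in 0 of the 79 windows, against 2.3% of all, and the interferon response letters, GAAA and again GAAA with the same gap, in 2 (2.53%, against 2.98%), those of Ndufa9 and Ndufs3. Among the genes with an NRF1 match were also Ndufaf4, Sdha, Sdhd and Atp5g2, and among those with an ETS match Uqcrh, Uqcr11 and Sdhd, so genes above and below 0 held both.

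Other genes of the chain and of its assembly and control were taken from fixed lists, and 0 of those described next rose or fell. Cytochrome c (Cycs), Cyc1 and Cox4i1, which the prefix rule leaves out, had ratios of -0.11, -0.13 and 0.12, and their list holds 4 genes. Cox4i1 is the nearest protein-coding gene before Irf8 on the chromosome in the RefSeq gene order; it read 12.60 in the wild type and 12.88 in the deficient sample on 430A, and 13.46 and 13.42 on MOE430_2 (mean 0.12, adjusted p = 0.603). ND5, the only subunit encoded in mitochondrial DNA that was tested, was higher by 0.55 on 430A and lower by 0.39 on MOE430_2 (mean 0.08, adjusted p = 0.852). The median was -0.13 over 9 tested assembly genes of complex I, in a list wider than the prefix rule, -0.05 over 19 of complexes III and IV, and -0.16 over 6 of complexes II and V. The 16 genes of mitochondrial transcription and biogenesis had a median of -0.02, with Tfam at -0.13, Nrf1 at -0.01 and Gabpa at 0.10.

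The lists of the steps that feed the chain or carry its product had medians below 0, and 0 of their genes passed. Of 16 tested genes of the tricarboxylic acid cycle 14 had ratios below 0, against 4037 of all 7820 genes, with a median of -0.12. On both types 9 of the 16 were lower, against 2687 of all genes, and Pearson's r between the types was -0.37. Values under other processing are not given for these lists. The ATP and phosphate carriers, which exchange the product of complex V across the inner membrane, had a median of -0.23 over 6 genes. The carriers Slc25a5 and Slc25a4, the ADP/ATP translocases, were lower on both types. Slc25a5 read 13.32 in the wild type and 12.94 in the deficient sample on 430A, and 13.79 and 13.59 on MOE430_2 (mean -0.29, adjusted p = 0.105), and Slc25a4 had a mean ratio of -0.34 (adjusted p = 0.159). Proteins of the mitochondrial ribosome, which makes the mitochondrially encoded subunits, had medians of -0.10 over 47 large and -0.10 over 27 small subunit genes. Of these, 38 and 21 had mean ratios below 0, 25 and 14 were lower on both types, and 0 rose or fell. The medians of coenzyme Q synthesis (8 genes) and of the mitochondrial antioxidants (7 genes) were -0.07 and -0.09, with 0 called in either.

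Glycolysis was measured beside the chain as the other route to ATP. Of 14 tested genes 2 fell and 0 rose, and the median was -0.22, with -0.38 on 430A and -0.11 on MOE430_2. Ldha, which makes lactate, fell from 12.70 to 12.31 on 430A and from 12.79 to 12.31 on MOE430_2 (mean -0.43 ± 0.10, limma adjusted p = 0.0346). Slc2a3, a glucose transporter, fell by 1.00 on average (adjusted p = 0.0087). Both wild type arrays were above both Icsbp-deficient arrays for either gene. The hypoxia list, in which Ldha is also counted, had 10 tested genes and a median of 0.07. Of these 2 rose, Vegfa (1.03) and Ndrg1 (0.97), 1 fell and 7 did not pass. Over all tested genes 3.26% rose and 2.34% fell. In the cytosolic ribosome 1 of 42 genes rose, Rpl22 (0.37, adjusted p = 0.0402), and the median was 0.01.

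**Figure D5:**
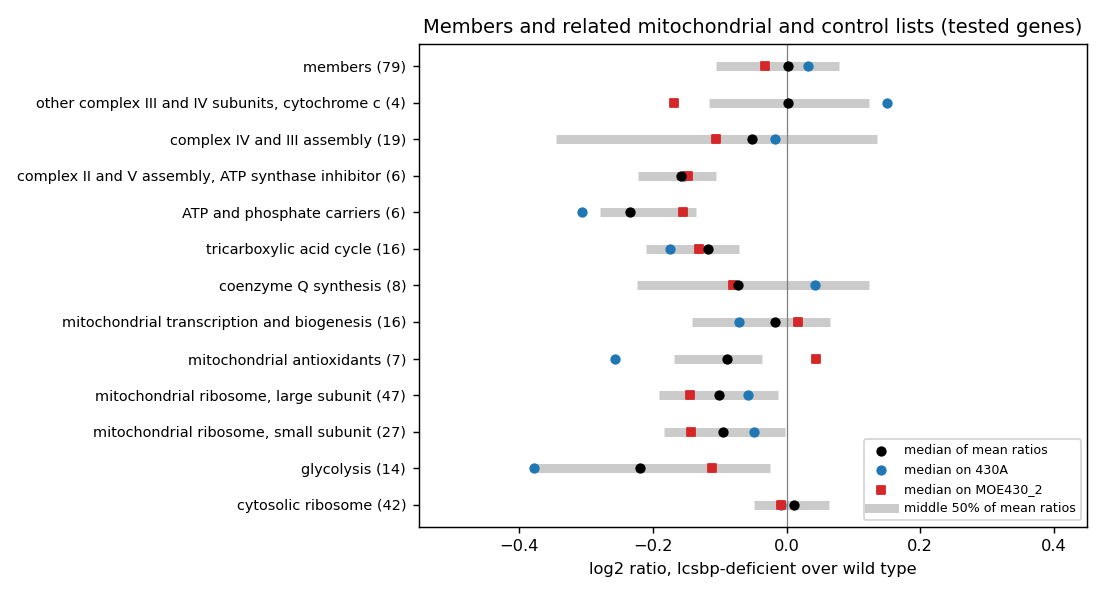
Median log2 ratio of the tested genes of the oxidative phosphorylation genes and 12 related lists, without complex I assembly, hypoxia, ND5 and the cell type markers (horizontal axis; gene numbers in parentheses), as the median of mean ratios (black), on 430A (blue) and on MOE430_2 (red), with grey bars for the middle 50% of mean ratios. The medians of mean ratios shown lie between -0.23 (ATP and phosphate carriers) and 0.01 (cytosolic ribosome), with the oxidative phosphorylation genes at 0.00.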

How the data were processed

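RNA of sorted GMP was measured on 2 Affymetrix array types. The authors deposited 1 intensity for each probe set, unlogged. Per the submitters' processing notes GCOS was used with the MOE430_2 arrays, and its version and scaling target are not given. The deposited intensity had a 2% trimmed mean of 498 on the wild type and 167 on the Icsbp-deficient 430A array, and 160 and 159 on the MOE430_2 arrays, so all were rescaled to 500 before an offset of 50 was added and log2 taken. The pair of each type was then quantile normalised, which removes any shift shared by most genes. All 22690 probe sets of 430A are also on MOE430_2. After 64 control probe sets were left out, those at or above the 40th percentile of mean signal were kept (13576 probe sets, 7820 genes).

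Ratios were tested in limma 3.58.1 (R 4.3.3; lmFit, eBayes with intensity trend) with genotype and array type as terms, which leaves 1 residual degree of freedom and 8.89 prior degrees of freedom. Array type is the block because it is shared by 1 array of each genotype, as the labels give it; replicate numbers carry no pairing of their own. The small number of arrays limits the precision. Each p-value sets a ratio against a spread between these pooled samples. By the degrees of freedom above, that spread came mostly from probe sets of like signal, and less from the gene itself. The script was tested on simulated data. Gene symbols came from GEO's platform annotation, which can be old. The 8 probe sets that list a member with another symbol were left out of the counts. Those that list Ndufa11 and Ndufs6 had mean ratios of 0.16 and -0.09, and neither passed. Promoters are RefSeq's.

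The members and lists were chosen with earlier results of these data known. Named genes were those called, the 2 highest and 2 lowest of each complex and of the assembly factors, paralogue families, the Sdh genes, genes with probe sets of opposite sign, and called genes of the related lists. Alternatives were other normalisations, offsets, filters, variance and probe set settings, single array types, left-out arrays and a fit without the block; a fit over genes in place of probe sets was chosen after seeing the data. The ratio of 3′ to 5′ Actb probe sets was 1.00 and 1.03 on the 430A and 1.47 and 1.44 on the MOE430_2 arrays (wild type, then Icsbp-deficient), so it differed between types and little between genotypes.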

Additional observations from a re-analysis of the deposited data

How the results depend on the processing

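The count of 0 genes that fell held in every setting that gives a test. The count of 4 that rose became 2 with no filter on low signals, 1 with no intensity trend and 0 with no replicate block (array type left out). Leaving out 1 array gave 0 to 0 genes; such a fit has no block. It stayed within 1.5 times of 4 in the other normalisations, offsets, filters and probe set rules, and in the fit over genes chosen after seeing the data. Ndufs5 passed in every setting that kept the block and gave a test, with an adjusted p of 0.000748 to 0.0341. Without the block its adjusted p was 0.689.

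Medians of the complexes, all between -0.06 and 0.02 in the report, changed sign or grew in several settings. With scaling alone, no quantile normalisation, they were 0.0588 (complex III), 0.114 (IV, sign kept) and 0.0152 (V). Cyclic loess turned that of complex III to 0.00105. With a filter at the 60th percentile the assembly median was 0.0752, and with the mean of all probe sets that of complex V was 0.00569. On 430A alone the median was 0.0650 for complex I, with its sign kept, and turned to 0.0232 for complex II and 0.0117 for III. On MOE430_2 alone it turned to -0.0529 for complex IV and 0.0301 for assembly. With 1 array left out the medians ranged from -0.140 to 0.196 over all members, -0.133 to 0.262 (I), -0.0959 to 0.110 (II), -0.119 to 0.0815 (III), -0.0646 to 0.283 (IV), -0.228 to 0.188 (V) and -0.0591 to 0.0979 (assembly). Among named genes that did not pass, scaling alone also turned the sign of Uqcrb (0.04), Cox6b1 (0.02), Atp5g3 (0.02), Cox6a1 (0.10), Atp5c1 (0.04), Atp5pb (0.02) and Ndufa3 (0.03). Cyclic loess turned Cox6a1 (0.02), no rescaling turned Ndufb6 (-0.07), and the mean of all probe sets turned 10 genes, Atp5a1 (0.04) with the largest move. The cause was not tested, beyond the loss of the within-type contrast when an array is missing. Low signals limit Cox6a2, Cox7a1, Cox8b, Ndufa4l2, Cox7b2 and the Ndufb4 probe set that lists no other symbol. Among tested genes the signal of Cox7c was low too, with a mean log2 of 7.37 against a median of 9.17 over all tested genes.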
